A study of Mus musculus with 5 samples.

Results

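The block of RNA polymerase II (RNAPII) by α-amanitin and that by DRB were compared by the DNA contacts of the β-major promoter measured after each, on 2 α-amanitin arrays and 1 DRB array. These 3 arrays were chosen by their sample titles from the 5 arrays of the series, and the 2 untreated arrays are given beside them. All 5 samples were single cell suspensions of mouse fetal livers at embryonic day 14.5, kept in culture. The α-amanitin samples A and B were cultured for 5 h with the drug, at 100 µg/ml in the study's methods and at 100 mg/ml in the labels. The DRB sample was cultured for 3 h with 100 µM DRB, and the untreated samples A and B for 5 h without a drug. Drug, culture time and the single DRB array therefore cannot be told apart. The strain was not given in the sources used here. The study describes its duplicates as independent replicate experiments. Nothing in the labels says whether A and B came from separate litters or cultures, so the spread between them may be technical.

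α-Amanitin binds RNAPII itself and blocks initiation as well as elongation of transcripts. DRB blocks the kinases that phosphorylate serine residues of the tail of RNAPII, so that the polymerase starts but fails to elongate. In 4C, cross-linked chromatin is cut with a restriction enzyme and ligated, and the fragments that were joined to a chosen viewpoint are amplified by inverse PCR and hybridised to a microarray. Signal is highest around the viewpoint, where any fragment is often close by. On the rest of the chromosome, clusters of bright probes mark regions that met the viewpoint. The study describes such distant contacts as generally present in a small share of the cells. In fetal liver, erythroid cells express β-globin at a very high rate, and their locus control region loops to the active gene. Comparing the drugs asks whether contacts differ when polymerase cannot start from when it cannot elongate.

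The viewpoint of every array was the promoter of β-major, the main adult β-globin chain. The RefSeq table used here for GRCm38.p6 names no Hbb-b1, the usual symbol of β-major. An adult gene it lists at this locus, Hbb-bs, was taken in its place. The 250 bases before the start of Hbb-bs (chr7:103827929-103828178, minus strand, upstream of the gene and outside its exons) are shown. They stand for the kind of element from which all contacts were measured.

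Hbb-bs: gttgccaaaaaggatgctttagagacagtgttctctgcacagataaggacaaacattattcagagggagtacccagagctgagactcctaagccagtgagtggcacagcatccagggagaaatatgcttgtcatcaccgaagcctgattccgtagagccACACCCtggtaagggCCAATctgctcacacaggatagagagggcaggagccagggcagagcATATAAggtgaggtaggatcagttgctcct

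The capitals mark the letters ACACCC of the CACCC box at position -91 from the transcription start, CCAAT at -76 and the TATA-like ATATAA at -30. Searched on both strands, these letters occurred in 13.9%, 33.8% and 9.1% of the 32851 promoters of the same table. The deposited probes carried no map position, so the viewpoint was located on the array by its signal, as probe 37873 of chromosome 7 in probe order, and distances from it are estimates at 60 kb for 29 probes. No other window could be given a gene name or a genome coordinate.

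Window signals were means of 29 neighbouring probes after quantile normalization, on the log2 scale, in 13261 windows that did not overlap. They covered chromosome 7, which carries the viewpoint, with 1991 windows, and chromosomes 8, 10, 11, 12, 14 and 15 with 11270. Median probe intensity before normalization was 677 on α-amanitin A, 463 on α-amanitin B and 469 on DRB, and 476 and 419 on the untreated arrays. The DRB array had the widest range: its 99th percentile was 25996, against 18035 and 18017 on the α-amanitin arrays, and 340 of its probes were at the scanner's highest signal, against 306 and 192. α-Amanitin A and untreated A were labelled with Cy3 and the other 3 arrays with Cy5, so that DRB shared its dye with α-amanitin B and not with α-amanitin A. Each array lay on a slide of its own.

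The viewpoint window itself was bright on every array. Its signal was 60710 on α-amanitin A, 61940 on α-amanitin B and 57760 on DRB, and 63300 and 62150 on the untreated arrays. Both α-amanitin values lay above DRB, by a mean of 0.09 on the log2 scale, and many probes here were close to the scanner's limit. After scaling of the arrays to one median, the order turned and the α-amanitin mean lay below DRB by -0.24.

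The share of an array's signal that fell on chromosome 7 was 22.9% on α-amanitin A, 27.5% on α-amanitin B and 21.9% on DRB. It was 26.6% and 27.1% on the untreated arrays. DRB was the lowest of the 5 arrays, yet it lay closer to α-amanitin A than the α-amanitin arrays lay to each other: the α-amanitin mean was 25.2% ± 3.26 (SD, n = 2) and exceeded DRB by 3.22 percentage points. When the median of each array was first subtracted as background, the shares were 30.0% and 35.8% for α-amanitin, 24.2% for DRB, and 33.1% and 32.4% for the untreated arrays, and DRB was then further from α-amanitin A, with 5.76 points between them, though α-amanitin A minus B was -5.78 points. Among the brightest 1% of probes of each array, 35.5% and 41.3% lay on chromosome 7 after α-amanitin, 28.4% after DRB, and 41.9% and 38.9% without a drug. An exact permutation test of 2 arrays against 1 cannot go below p = 0.333, and no model that pools the spread over the 3 groups was fitted, so the shares are values without a test.

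**Figure D1:**
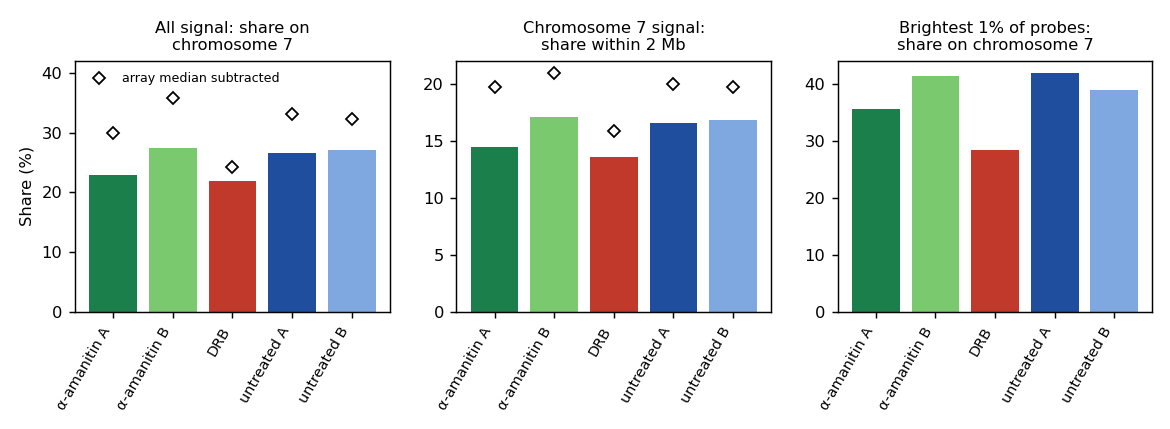
Shares of signal in percent on the 5 arrays. Bars show uncorrected intensity, white diamonds the same share after subtraction of the array median. The left panel gives the share of all signal on chromosome 7, the middle panel the share of chromosome 7 signal within 2 Mb of the viewpoint, and the right panel the share of the brightest 1% of probes that lie on chromosome 7. DRB is the lowest array in each panel, and with uncorrected intensity α-amanitin A lies next to it.

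The same order was seen close to the viewpoint. Within an estimated 2 Mb on each side lay 14.5% of the chromosome 7 signal on α-amanitin A, 17.0% on α-amanitin B and 13.6% on DRB, with 16.5% and 16.8% on the untreated arrays. The α-amanitin mean exceeded DRB by 2.17 percentage points, with an SD of 1.83 between its replicates. After subtraction of the array median the shares were 19.7%, 20.9% and 15.8%, and 20.0% and 19.7% without a drug. On that scale DRB stood apart from both α-amanitin arrays, by 3.84 and 5.13 points, against 1.28 points between the replicates. Within 0.5 Mb the shares after subtraction were 12.6%, 13.4% and 9.86%, so on that scale the gap was already present next to the viewpoint. Without subtraction they were 8.84%, 10.6% and 8.24%. There α-amanitin A exceeded DRB by 0.60 points, and α-amanitin A minus B was -1.73 points.

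A window was called concordant where both α-amanitin arrays lay on the same side of DRB and each differed from it by more than they differed from each other. Of all windows, 4199 met this rule, which is 31.7% of 13261. The spread between single arrays can meet the rule with no difference between the drugs. In each window, ties aside, some array of the 3 lies apart from a closer pair. If the arrays varied alike, DRB would be that array as often as either α-amanitin array, and 31.7% is not above such an equal split. No count below was tested against this, so the counts describe these 3 arrays and do not show that the drugs differ. In 1361 of the concordant windows (10.3% of all windows) α-amanitin was above DRB, and in 2838 (21.4%) below. By at least 2-fold on both arrays, 146 windows (1.1%) were above and 477 (3.6%) below. The rule was met in 549 windows of chromosome 7 (27.6%) and in 3650 of the other 6 chromosomes (32.4%, from 30.3% on chromosome 14 to 34.9% on chromosome 10). The distance between the α-amanitin arrays themselves was larger on chromosome 7, with a median of 0.52 on the log2 scale against 0.32, and its part in these counts was not tested.

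On chromosome 7, 259 concordant windows were above DRB and 290 below, so that 47.2% were above, with 65 and 52 by at least 2-fold. On the other chromosomes 1102 were above and 2548 below, so that 30.2% were above, from 28.6% on chromosome 14 to 33.9% on chromosome 8, with 81 and 425 by at least 2-fold. This direction depended on the scaling. With uncorrected intensity, 18.1% of the concordant windows of chromosome 7 and 8.89% of those elsewhere were above DRB, and with the median of the 29 probes in place of their mean these shares were 47.9% and 53.3%.

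Among the concordant windows of chromosome 7, the share above DRB was highest around the viewpoint. Concordance itself was not more frequent there: 32.8% of the 67 windows within 2 Mb met the rule, against 31.7% of all windows. Most of the 259 concordant windows above DRB, 239, lay beyond 2 Mb. Within 0.5 Mb, 6 of 17 windows were concordant, and all 6 were above DRB. From 0.5 to 2 Mb, 16 of 50 windows were concordant, with 14 above and 2 below. From 2 to 5 Mb 13 of 21 concordant windows were above DRB, from 5 to 10 Mb 28 of 43, from 10 to 20 Mb 50 of 86, and from 20 to 40 Mb 92 of 185. Beyond 40 Mb it was 56 of 192, or 29.2%, which is close to the 30.2% of the other chromosomes. Within 2 Mb 20 of 22 concordant windows (90.9%) were thus above DRB. With uncorrected intensity it was 9 of 17 (52.9%), and after scaling of the arrays to one median 3 of 13 (23.1%).

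**Figure D2:**
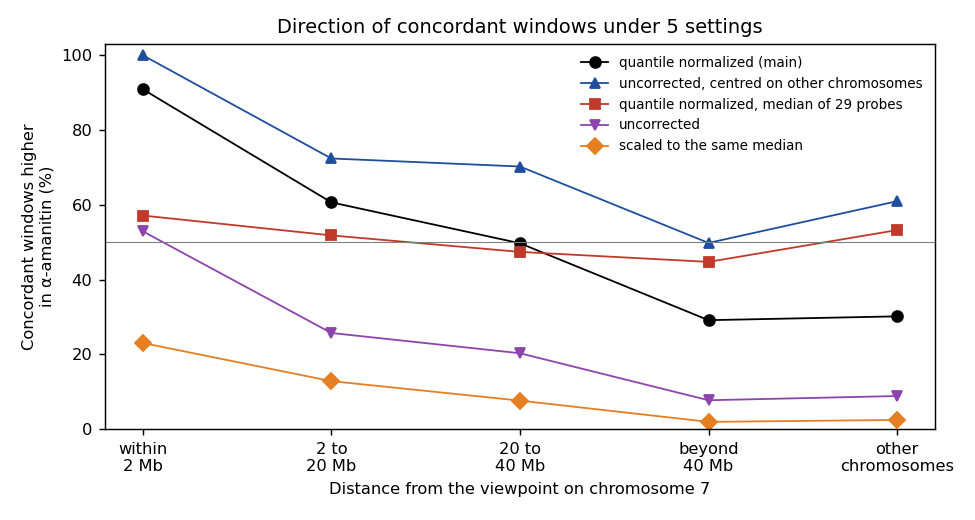
Percentage of concordant windows in which both α-amanitin arrays lie above DRB (y axis), by estimated distance from the viewpoint on chromosome 7 and on the other chromosomes (x axis), under 5 ways of scaling or averaging the same intensities. The level of each line depends on the setting, and from within 2 Mb to beyond 40 Mb every line goes down. It goes from 90.9% (20 of 22 windows) to 29.2% in the main setting and from 57.1% (8 of 14 windows) to 44.7% with the median of 29 probes. The points within 2 Mb rest on few concordant windows, from 13 after scaling to one median to 22 in the main setting.

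The scalings shifted the level of the differences, by amounts that varied between windows. The median over all windows of the α-amanitin mean minus DRB was -0.01 after quantile normalization, -0.39 with uncorrected intensity and -0.64 after scaling to one median. Set against the other chromosomes, the medians within 2 Mb moved less: α-amanitin B lay 0.76, 0.78 and 0.78 above its level on the other chromosomes in these 3 settings, and α-amanitin A 0.03, -0.08 and -0.08. Beyond 40 Mb the values were -0.01, -0.16 and -0.16 on α-amanitin A and -0.04, -0.13 and -0.13 on α-amanitin B. Within 2 Mb the value of α-amanitin B was 0.44 when chromosome 7 was normalized alone and 0.42 with the median of the probes.

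That profile was carried by α-amanitin B. Within 2 Mb α-amanitin B lay above DRB in 86.6% of the 67 windows, with a median difference of 0.67 on the log2 scale, whereas α-amanitin A lay above DRB in 50.7%, with a median difference of 0.02. From the innermost ring outwards, the medians of α-amanitin B minus DRB were 0.63, 0.73, 0.29, 0.33, 0.22, 0.12 and -0.13. Those of α-amanitin A minus DRB were -0.06, 0.18, -0.10, 0.13, -0.04, 0.04 and -0.01. The untreated arrays resembled α-amanitin B: within 2 Mb they lay above DRB by a median of 0.69 on A and 0.69 on B, in 86.6% and 89.6% of windows. Close to the viewpoint these 3 arrays thus lay at similar medians, with DRB and α-amanitin A below them. α-Amanitin B and DRB carried the same dye and α-amanitin A the other. Untreated A carried the dye of α-amanitin A, and its median difference from DRB within 2 Mb was 0.69. The part of the dye in the low values of α-amanitin A was not tested.

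**Figure D3:**
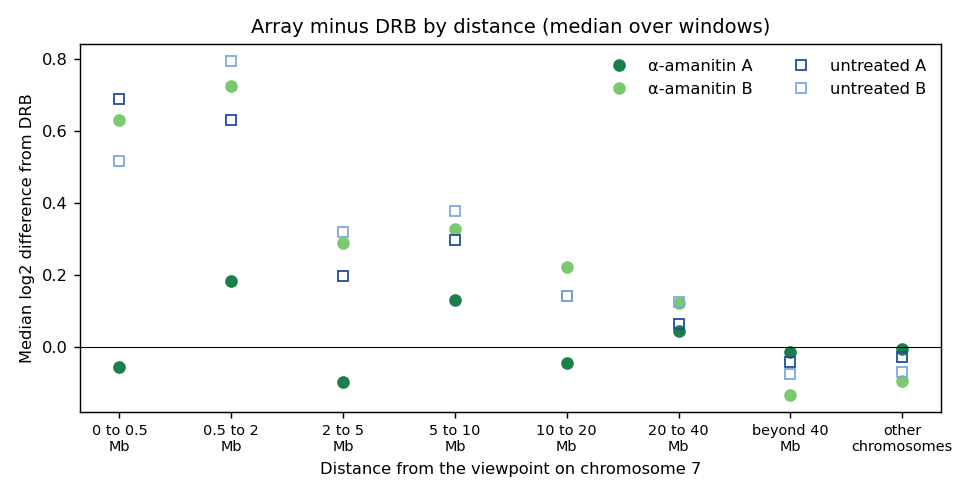
Median over windows of the log2 signal of an array minus that of DRB (y axis), in 7 rings of estimated distance from the viewpoint on chromosome 7 and on the other chromosomes (x axis). Filled circles are the α-amanitin arrays, open squares the untreated arrays. α-Amanitin B and both untreated arrays lie between 0.52 and 0.79 above DRB within 2 Mb and near 0 on the other chromosomes, while α-amanitin A lies between -0.10 and 0.18 in every ring.

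Around the viewpoint, the 5 concordant windows that differed by at least 2-fold were all above DRB and all lay after the viewpoint in probe order. They were picked out after their values were seen. At 0.66 Mb the signal was 6728 on α-amanitin A, 4067 on α-amanitin B and 1280 on DRB, and 3966 and 3003 on the untreated arrays. At 1.02 Mb it was 1530, 2780 and 577, with 1231 and 2005 untreated. In both windows the untreated arrays also lay above DRB. At 0.42 Mb the signals were 17500, 14690 and 6274, with 17730 and 19800 untreated, at 1.62 Mb they were 3895, 6011 and 1738, with 1289 and 6478, and at 0.36 Mb they were 12470, 10070 and 4851, with 8244 and 8755. The 2 concordant windows below DRB, at 1.56 and 1.98 Mb, differed from it by 1.05-fold and 1.12-fold on the nearer array. Before the viewpoint in probe order, all 11 concordant windows within 2 Mb were above DRB.

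**Figure D4:**
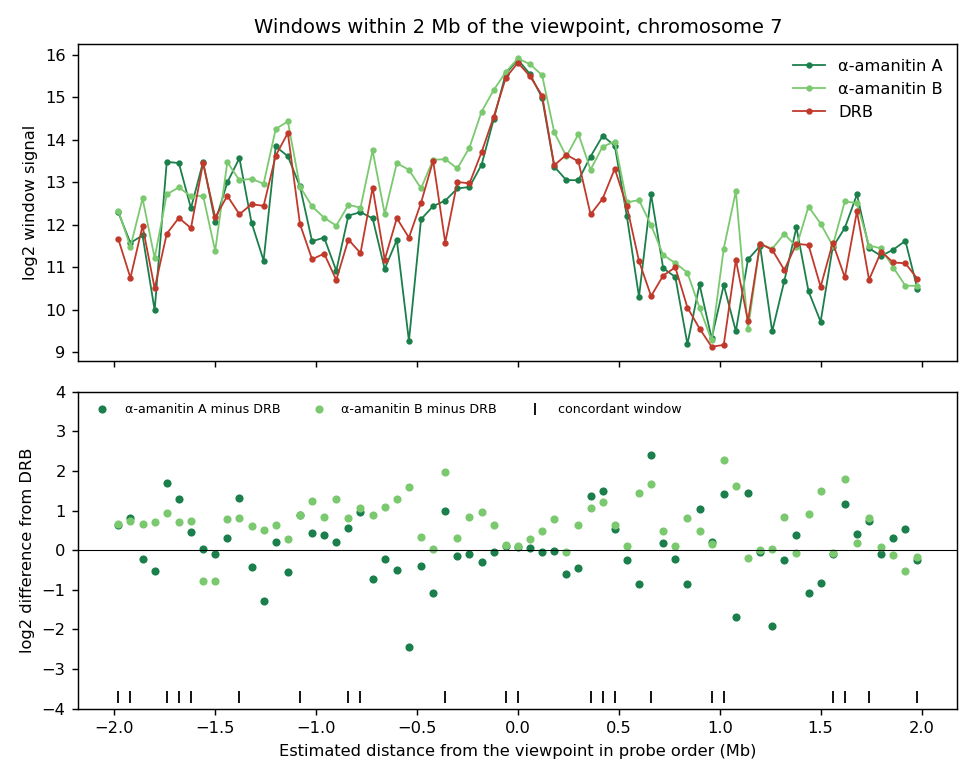
Windows of 29 probes within an estimated 2 Mb of the viewpoint (x axis, distance in Mb). The upper panel shows the log2 signal of the 2 α-amanitin arrays and of DRB, and the lower panel each α-amanitin array minus DRB, with ticks under the 22 concordant windows. The light points of α-amanitin B lie mostly above 0, and the dark points of α-amanitin A scatter on both sides of it.

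Further out on chromosome 7, windows were named only where the mean signal of the 5 arrays was above its median. The largest concordant differences among them were single windows. The window at 8.76 Mb had a signal of 5835 on α-amanitin A, 5851 on α-amanitin B and 693 on DRB, with 1574 and 6124 on the untreated arrays. Both α-amanitin arrays were at least 8.41-fold above DRB here. That they lay close together follows in part from the rule, which asks for a pair closer to each other than to DRB. The untreated arrays, which did not enter the rule, lay at different levels. The window at -11.5 Mb had 4101, 4036 and 719, with 2836 and 2256 untreated, and that at 26.3 Mb had 3652, 5179 and 763, with 2375 and 2322 untreated. In both, the untreated arrays lay between the α-amanitin arrays and DRB. The windows at 14.3 Mb and -25.1 Mb had a smaller gap of 4.21-fold and 4.17-fold. In these 5 windows the brightest of the 29 probes made up 33.3% to 70.5% of the signal of α-amanitin A, so single probes made a large part of each value. The differences shrank with measures that weigh single bright probes less. At 8.76 Mb the log2 difference of the α-amanitin mean from DRB was 3.08, but 0.61 with the mean of log2 signals and 0.14 with the median of the probes, and for all 5 windows it was 2.20 to 3.08, 0.61 to 0.84 and -0.05 to 0.49.

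In the other direction the largest gaps on chromosome 7 were smaller. The window at -56.2 Mb had 1042 on α-amanitin A, 903 on α-amanitin B and 3612 on DRB, with 1360 and 838 untreated. That at -72.5 Mb had 1227, 875 and 3863, with 1060 and 1617 untreated. In both, DRB stood above all 4 other arrays. At -8.94 Mb the signals were 959, 873 and 2755, with 2803 and 2815 on the untreated arrays, which here were level with DRB. The windows at -22.4 Mb and 41.1 Mb differed by 2.75-fold and 2.74-fold on the nearer array. For these 5 windows the log2 difference was -1.90 to -1.55, but -0.18 to 0.09 with the median of the probes.

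On the other chromosomes the same filter on mean signal was applied. There the window with the largest gap above DRB lay on chromosome 15 (central probe 4249). Its signals were 4475 on α-amanitin A, 4075 on α-amanitin B and 573 on DRB, and 658 and 559 on the untreated arrays. Here the untreated arrays were level with DRB. On chromosome 8 the window centred on probe 53926 had 3578, 3909 and 534, with 1321 and 4055 untreated. Below DRB, the largest gap lay on chromosome 14 (central probe 47053), with 373, 701 and 3999, and 5683 and 4484 untreated. On chromosome 10 (central probe 25390) the signals were 798, 874 and 4655, with 777 and 867 untreated, so that DRB stood alone. The largest gap of the remaining chromosomes was between 3.22-fold and 5.08-fold above DRB and between 3.99-fold and 5.16-fold below it. For the 12 named windows of these chromosomes the median of the probes gave log2 differences of only -0.30 to 0.17.

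Runs of neighbouring concordant windows were short. On chromosome 7 there was 1 run of 4 or more neighbours in one direction, of 5 windows at about -74 Mb with α-amanitin below DRB. On the other chromosomes the longest runs had 7 windows, 1 on chromosome 10 and 1 on chromosome 11, each about 420 kb long and with α-amanitin below DRB. The mean log2 signals of the run on chromosome 10 were 9.24 and 9.37 for α-amanitin, 10.04 for DRB, and 9.20 and 9.38 without a drug. A run with α-amanitin above DRB, of 5 windows on chromosome 8, had 11.01 and 10.80 for α-amanitin, 10.13 for DRB, and 10.31 and 10.31 without a drug.

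The untreated arrays did not enter the rule. They are given as a description only, since the rule picks windows in which DRB lies apart from a close pair of α-amanitin arrays, and other arrays may lie nearer to that pair for this reason alone. On chromosome 7 both untreated arrays were nearer to the α-amanitin mean than to DRB in 101 of the 259 windows above DRB (39.0%) and nearer to DRB in 63 (24.3%). Among the 290 below DRB these shares were 42.1% and 22.1%. Within 2 Mb 16 of the 20 windows above DRB had both untreated arrays nearer to α-amanitin and 1 had both nearer to DRB, while both untreated arrays were nearer to DRB in the 2 windows below it. On the other chromosomes the untreated arrays were nearer to α-amanitin in 48.8% of the 2548 windows below DRB and nearer to DRB in 18.8%, but nearer to DRB in 35.1% of the 1102 windows above it and nearer to α-amanitin in 23.1%.

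The direction also followed the level of contact without a drug. On chromosome 7, split into 4 equal groups by untreated signal, 31.9% of the concordant windows were above DRB in the lowest group, then 40% and 49.2%, and 72.8% in the highest. Without the 2 Mb on each side of the viewpoint these shares were 32.3%, 40%, 47.5% and 67.5%. On the other chromosomes there was no such rise: the shares were 33.7%, 31.8%, 31.3% and 23.6%. With the median of the 29 probes the order on chromosome 7 turned, with 56.9% in the lowest group and 42.5% in the highest.

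No single window passed the test across all windows. limma, fitted to the 5 arrays in 3 groups, called 0 of 13261 windows (0%) at an adjusted p of 0.05, and the smallest adjusted p was 0.457. At an unadjusted p below 0.05, limma listed 831 windows (6.27%), 159 with α-amanitin above DRB and 672 below, of which 133 lay on chromosome 7, 68 above. The fit had 2 residual degrees of freedom, and the single DRB array was assumed to vary like the other groups. The window with the smallest p lay on chromosome 15 (central probe 22113), with 429 on α-amanitin A, 451 on α-amanitin B and 1003 on DRB, and 457 and 417 untreated, a log2 difference of -1.19 with a standard error of 0.12. The next, on chromosomes 12 (central probe 1146) and 11 (central probe 17415), had differences of -0.96 and -1.72. In all 3 windows DRB stood above the other 4 arrays, and 1 probe held 41.3% to 71.8% of the DRB signal. With the median of the probes the differences were -0.15, -0.08 and -0.07.

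The ranking of the windows was shared more widely than their levels. Over 55802 overlapping windows of chromosome 7 beyond 2 Mb, the rank correlation was 0.62 between α-amanitin A and DRB, 0.65 between α-amanitin B and DRB, and 0.56 between the α-amanitin arrays. These are descriptions, since neighbouring windows share probes and all arrays share probe sequences. The mean correlation of α-amanitin with DRB was 0.80 within 0.5 Mb, 0.72 from 0.5 to 2 Mb, 0.71 from 2 to 5 Mb, and between 0.59 and 0.65 in the rings further out. On the other chromosomes it was 0.60 to 0.65, a range that overlaps that of the far rings of chromosome 7. Beyond 2 Mb both α-amanitin correlations with DRB were thus above that between the α-amanitin arrays, with no test of the difference. Over the same windows the rank correlation with DRB was 0.69 for untreated A and 0.61 for untreated B. The value of untreated A was above both α-amanitin values, and that of untreated B below both.

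Interacting regions were called with the threshold of the study's methods, on uncorrected running means. The study counted a region only when both duplicates passed. DRB had 1 array, so its regions rest on that array alone and are set here against α-amanitin regions that needed both arrays. A window counted when it passed the threshold at which the false discovery rate on shuffled probes was below 0.05. The threshold was 7749 on α-amanitin A, 6973 on α-amanitin B and 7955 on DRB. On DRB 1163 of 57737 overlapping windows (2.01%) were above it, and 941 (1.63%) were above it on both α-amanitin arrays. The windows shared by all 3 arrays numbered 662, which is 56.9% of those of DRB and 70.4% of those of α-amanitin. Of the DRB windows 59.7% were above the threshold on α-amanitin A and 88.8% on α-amanitin B.

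Joined without gaps, the DRB windows formed 62 regions. In 28 regions (45.2%) both α-amanitin arrays were above their thresholds in a common window, in 22 (35.5%) 1 array was, and in 12 (19.4%) neither was. Of the 22 regions with 1 array, α-amanitin B was the array in 21. Over the whole chromosome α-amanitin B also had more windows above its threshold than α-amanitin A, 2171 against 1328. Both untreated arrays were above their thresholds in a common window in all 28 regions found in both, in 17 of the 22 and in 3 of the 12. The regions found in neither had a median DRB peak of 1.03 times the threshold, against 1.36 times for those found in both, so most lay just above the limit, and their median width was 3 windows against 19.5. Of the 48 regions called in both α-amanitin arrays, 32 (66.7%) held a DRB window above its threshold, 16 of 19 near the viewpoint and 16 of 29 beyond 2 Mb. The 16 others had a median DRB peak of 0.91 times the DRB threshold.

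The strongest DRB regions were found with both drugs. The region around the viewpoint spanned 255 windows with a DRB peak of 62482, and the peaks of α-amanitin A and B there were 63239 and 62204. At -1.16 Mb the peaks were 25717 on DRB, 16585 on α-amanitin A and 24500 on α-amanitin B, at -14.3 Mb they were 18909, 12481 and 19334, and at 16.5 Mb 18233, 17462 and 21210. All of these were above the thresholds of all 5 arrays. In the non-overlapping windows beyond 2 Mb, the highest DRB signals were 11400 at -3.06 Mb, where α-amanitin had 15050 and 15980, 11270 at 4.44 Mb, where it had 9549 and 20210, and 11180 at -14.3 Mb, where it had 8090 and 9715. The first was concordant. At 4.44 Mb the α-amanitin arrays lay on both sides of DRB, and at -14.3 Mb the nearer array lay below DRB by less than the α-amanitin arrays differed from each other. The clearest DRB region that neither α-amanitin array held was at 23.0 Mb, where the peak was 11256 on DRB, 1.41 times its threshold, and 0.30 and 0.95 times the threshold on α-amanitin A and B. Untreated A was at 1.34 times its threshold there and untreated B at 0.94 times.

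**Figure D5:**
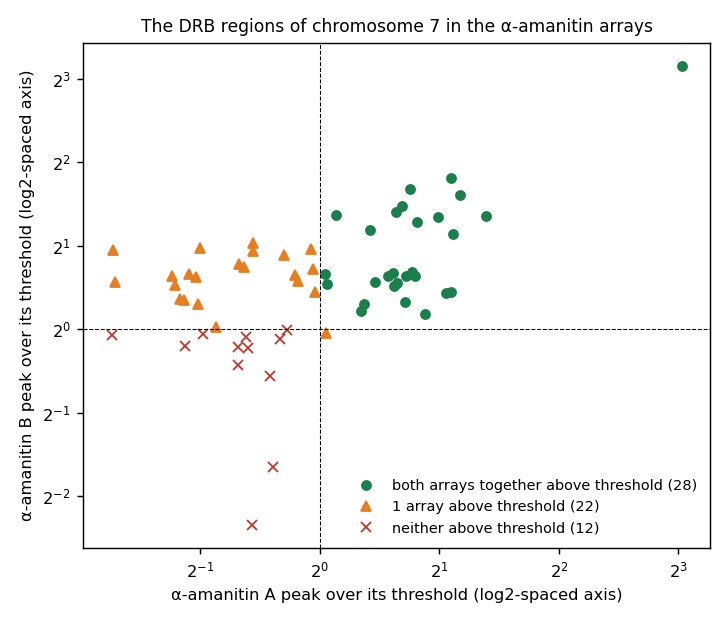
The 62 regions of chromosome 7 called on the DRB array, each placed by the highest running mean of α-amanitin A (x axis) and of α-amanitin B (y axis) inside it, divided by the threshold of that array, on log2-spaced axes. Dashed lines mark the thresholds. Circles are the 28 regions in which both arrays pass in a common window, triangles the 22 in which 1 array passes, 21 of them α-amanitin B, and crosses the 12 in which neither does.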

How the data were processed

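4C from the β-major promoter was done with HindIII as the first and NlaIII as the second enzyme, on NimbleGen arrays. The authors deposited raw probe intensity for one dye per array (NimbleScan 2.3.19), neither background corrected nor normalized. The other dye of each array carried a further sample, which was not analysed here. The 385000 probes were put in order by the last digits of their identifiers, chromosome by chromosome. Intensities were quantile normalized over the 5 arrays, averaged over 29 probes and log2 transformed in Python 3.11.15 (pandas 2.3.3, scipy 1.17.1, numpy 2.4.6), and tested with limma 3.58.1 in R 4.3.3 (trended eBayes, Benjamini-Hochberg adjustment over all windows). Regions used uncorrected intensity and 100 seeded shuffles of chromosome 7. The programs were tested on simulated data. Windows were named by fixed rules: the 5 largest gaps in each direction on chromosome 7 beyond 0.5 Mb and the largest on each other chromosome, among windows above the median of mean signal, the 3 smallest limma p-values, the viewpoint, and the 3 highest DRB windows beyond 2 Mb. The comparison, its rules and its lists were chosen with earlier results of these data known. The number of arrays, 5 in all and 1 for DRB, limits the precision.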

Additional observations from a re-analysis of the deposited data

How the results depend on the processing

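Values are given for concordant windows of chromosome 7, for those above DRB on all of chromosome 7, within 2 Mb and beyond 40 Mb, and for both shares on the other chromosomes, wherever they left the 95% binomial interval of the main value, which covers counting error only. With uncorrected intensity, above DRB were 18.1%, 52.9% within 2 Mb, 7.76% beyond 40 Mb and 8.89% on the other chromosomes, where 29.0% were concordant. With arrays scaled to one median, 45.5% and 64.0% were concordant on chromosome 7 and elsewhere, and above DRB were 6.52%, 23.1% within 2 Mb (a turned direction), 1.99% beyond 40 Mb and 2.49% elsewhere. With uncorrected intensity centred on the windows of the other chromosomes, an alternative chosen after seeing the data, 36.6% and 51.2% were concordant, and above DRB were 64.0% on chromosome 7 and 61.0% elsewhere (both turned), 100% within 2 Mb and 49.8% beyond 40 Mb. Quantile normalization of chromosome 7 alone gave 38.3% above DRB and 70.6% within 2 Mb. Windows of 15 probes gave 34.0% concordant and 34.1% above DRB elsewhere, and windows of 59 probes 55.4% above on chromosome 7 (turned) and 27.2% elsewhere. The mean of log2 signals gave 69.2% within 2 Mb and 43.5% elsewhere. The median of the probes gave 30.6% concordant on chromosome 7, and above DRB 57.1% within 2 Mb, 44.7% beyond 40 Mb and 53.3% elsewhere (turned). Without the dimmest of 4 equal groups of windows 51.8% were above on chromosome 7 (turned), and elsewhere 30.8% were concordant with 28.3% above. Other alternatives stayed within the interval, and the cause of these shifts was not tested.

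The α-amanitin mean exceeded DRB in the share of signal on chromosome 7 by 8.65 points after median subtraction and by 9.996 points among the brightest 1% of probes, and in the share within 2 Mb by 4.49 points after median subtraction. Leaving out each α-amanitin array gave 0.92 to 5.53 points for the first share and 0.88 to 3.46 points for the second. The mean rank correlation with DRB was 0.77 with the mean of log2 signals, 0.71 with the running median and 0.66 with windows of 59 probes, and 0.62 to 0.65 with 1 α-amanitin array left out. DRB regions found in α-amanitin numbered 52 of 145 with the running median, 11 of 28 when joined across gaps of up to 48 probes, and 29 to 49 of 62 with 1 array left out. The 49 came without α-amanitin A.

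limma called 0 windows under every alternative run. With dye as a block, which set DRB with the B arrays, the count was also 0. That limma fit listed 581 windows (4.38%) at an unadjusted p below 0.05, with a smallest adjusted p of 0.991. At that unadjusted level the count was 4257 after scaling to one median (48 above DRB), 1171 uncorrected, 630 with the median of the probes and 661 with the 3 arrays alone, and 691 to 1155 with 1 array left out.

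Of the named windows, 9 turned direction with the median of the probes: the log2 difference from DRB became -0.051 at 14.3 Mb, 0.036 at -8.94 Mb and 0.086 at -22.4 Mb on chromosome 7, -0.044 and 0.051 on chromosome 8 (central probes 53926 and 56623), 0.11 on chromosome 10 (25390), -0.038 on chromosome 11 (28290), and -0.17 and 0.070 on chromosome 12 (18227 and 40760). Scaling to one median turned the viewpoint window (-0.24) and those at -3.06 Mb (-0.17) and 4.44 Mb (-0.28), and uncorrected intensity the last of these (-0.022).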

Other observations

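The array also tiles the mouse β-globin domain with 124 probes, a set outside the windows above. Its median intensity was 51381 on α-amanitin A, 45808 on α-amanitin B and 52594 on DRB, and 49521 and 54141 on the untreated arrays. After quantile normalization the medians were 44052, 48922 and 44666, and 56321 and 56155 untreated, so DRB was the second brightest array before normalization and the second lowest after it. The 210 probes of the human β-globin domain, whose sequence is not that of these mouse cells, had medians of 460, 356 and 300 on the 3 drug arrays and 368 and 318 without a drug, each below the median of all probes on that array. The brightest of these probes reached 2308, 1026 and 9338 on the 3 drug arrays and 6747 and 10165 without a drug.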
